A study of Rattus norvegicus with 44 samples.

Results

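Potassium channel genes were described here in the choroid plexus, the folded epithelium in the brain ventricles that makes the cerebrospinal fluid, and in rat trunk blood. The genes were all those of the array whose symbol in the platform annotation starts with Kcn, without the inward rectifier Kcnj13, which gave 80 genes (88 probes) of the 10412 genes (14055 probes) of the value table. They comprise 32 voltage-gated pore subunits, 16 auxiliary subunits, 14 inward rectifiers, 11 two-pore domain channels and 7 channels gated by calcium or sodium. RNA came from male Sprague-Dawley rats of the NCTR strain, 3 months old, killed 3 h or 1 day after saline, after environmentally-induced hyperthermia (EIH) or after amphetamine at neurotoxic doses (AMPH). The 44 Agilent arrays, hybridised with 1 dye, form 11 groups of 4: in choroid plexus saline 3 h, EIH 3 h, AMPH 3 h, EIH 1 day and AMPH 1 day, and in blood the same groups with a saline 1 day group besides. Choroid plexus RNA was pooled from 3 rats an array and blood RNA came from 1, and no choroid plexus saline group of 1 day was analysed here. The 4 choroid plexus EIH pools of 1 day bear titles of controls, while their source and treatment labels name EIH, and they were used as EIH.

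Potassium channels let potassium leave a cell down its gradient and so set the membrane potential, and the subfamilies differ in the signal that opens them: a change of voltage, calcium, G proteins, ATP, acid or stretch. In the choroid plexus epithelium they return the potassium that the Na,K-ATPase and the cotransporters carry in and keep up the driving force for secretion. In white blood cells and red cells they set the potential that drives calcium entry and control cell volume, the calcium-activated Kcnn4 being the classical channel of red cells.

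The RefSeq promoter table (build GRCr8) held 61 windows of 250 bases before the start for 55 of the 80 genes. Printed here are windows of 2 genes higher in choroid plexus and 2 higher in blood in each of the 5 conditions compared. The 2 pairs thus differed between the tissues in opposite directions, and the promoters themselves were not measured. The motifs searched were short and read on both strands: TAATCC (the core bound by Otx factors), GAGGAA (Ets factors), TATAAA (the TATA box) and GGGCGG (the GC box), which do not overlap each other in letters. Capitals mark matches, read 5′ to 3′ on the strand of the gene, so that a match on the opposite strand appears as its reverse complement (CCGCCC or TTCCTC). The windows lie at chr13:106252966-106253215 on the plus strand (Kcnh1) and, on the minus strand, at chr3:173262347-173262596 (Kcns1), chr4:161262353-161262602 (Kcna6) and chr8:39011097-39011346 (Kcnj5).
Kcnh1: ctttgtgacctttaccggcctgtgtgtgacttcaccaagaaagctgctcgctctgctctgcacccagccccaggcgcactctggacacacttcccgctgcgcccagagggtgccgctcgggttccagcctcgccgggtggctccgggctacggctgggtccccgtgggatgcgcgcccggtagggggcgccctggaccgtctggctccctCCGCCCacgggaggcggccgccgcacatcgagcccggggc
Kcns1: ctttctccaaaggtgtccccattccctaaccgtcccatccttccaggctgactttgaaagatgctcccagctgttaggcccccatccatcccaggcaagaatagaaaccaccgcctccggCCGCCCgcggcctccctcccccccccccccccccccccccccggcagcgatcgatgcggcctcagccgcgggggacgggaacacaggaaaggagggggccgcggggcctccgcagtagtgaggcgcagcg
Kcna6: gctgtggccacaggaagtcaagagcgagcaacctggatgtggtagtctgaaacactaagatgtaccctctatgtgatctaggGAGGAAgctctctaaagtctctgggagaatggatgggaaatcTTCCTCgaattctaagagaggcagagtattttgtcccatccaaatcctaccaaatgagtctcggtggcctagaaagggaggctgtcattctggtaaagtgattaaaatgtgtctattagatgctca
Kcnj5: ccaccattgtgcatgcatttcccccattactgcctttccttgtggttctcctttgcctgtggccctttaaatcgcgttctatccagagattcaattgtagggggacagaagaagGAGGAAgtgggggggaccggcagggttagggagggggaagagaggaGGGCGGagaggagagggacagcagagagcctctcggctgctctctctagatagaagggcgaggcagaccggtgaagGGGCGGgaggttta
The windows of Kcnh1 and Kcns1 are 71.6% and 68.8% G or C and hold 1 GC box each, at 40 to 35 and at 130 to 125 bases before the start. The Kcna6 window is 45.6% G or C and holds GAGGAA on both strands, at 168 to 163 and 126 to 121 bases before the start. The Kcnj5 window is 57.2% G or C, with GAGGAA at 136 to 131 and GC boxes at 90 to 85 and 14 to 9 bases before the start. Of the 61 windows of potassium channel genes 30 (49.18%) held a GC box, 22 (36.07%) GAGGAA, 3 (4.92%) TAATCC and 1 (1.64%) TATAAA. Among all 33469 windows of the table the shares were 30.47%, 23.34%, 6.34% and 12.93%. The median G or C content was 59.6% in the potassium channel windows and 51.2% in all. A match is a string of letters and not a shown binding site.

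The deposited intensities were read on the log2 scale, on which 1 unit is a doubling. The array medians lay between 7.12 and 7.19 for the arrays of 3 h and between 7.36 and 7.42 for those of 1 day, so that the times form separate normalization sets. Some cells of the table are blank, by a rule not given in the sources used here. All 24 blood samples carry a tissue tag that also names the striatum, a brain region, while their titles and source names say blood, and they were used as blood. Markers followed the tissue of the source names: the mean over 6 epithelial markers without Ttr (Kl, Aqp1, Folr1, Clic6, Otx2, Slc4a5) was 12.59 to 13.11 on 19 of the 20 choroid plexus arrays and 5.90 to 9.12 on the blood arrays, and the mean over erythroid markers was 14.30 to 14.84 in blood and 6.35 to 7.82 on the same 19 pools. The pool AMPH 1 day replicate 2 stood apart, with epithelial markers at 9.95, erythroid markers at 9.67 and stromal markers at 13.80, and its values are given separately. Nothing in the labels says how far arrays of a group are independent beyond the rats they list. In choroid plexus 5 rat numbers recur over 7 pools, and EIH 1 day holds pools that share a number within the group. The rats of 17 of the 24 blood arrays are also listed in choroid plexus pools. The p-values thus measure only the spread between these arrays, which the fits treat as independent. A random block was also tried for arrays linked by shared rats, directly or through a chain of other arrays. With it the genes called between tissues numbered 26, 25, 30, 29 and 27 in saline, EIH 3 h, AMPH 3 h, EIH 1 day and AMPH 1 day. Without it they numbered 26, 25, 30, 27 and 21. Fewer cells of a type and less RNA per cell cannot be told apart in such tissue RNA, and precision is limited by how few arrays each group has.

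Most potassium channel genes were dim in both tissues. In choroid plexus 6 genes were above the array median on all 20 arrays: Kcne2, Kcna1, Kcnk1, Kcnh1, Kcnj8 and Kcnn4. In blood 5 genes were above it on all 24 arrays: Kcnn4, Kcna6, Kcnk6, Kcnk9 and Kcnab1. Kcnn4 alone was on both lists. Group by group, 7 to 11 of the 80 genes were above the median on all 4 choroid plexus arrays, beside 43.3% to 48.3% of all genes. In the blood groups 7 to 9 were, beside 36.0% to 42.8% of all genes. The share of all genes above it on every array of a tissue is not given here. Above the median on no array were 46 genes in choroid plexus, 35 in blood and 28 in either tissue, the last including the delayed rectifiers Kcnb2, Kcnc1 and Kcnc2 and the inward rectifiers Kcnj2, Kcnj6, Kcnj10 and Kcnj15. Of the 2478 potassium channel values below the array median, 76.31% equalled that of another potassium channel gene on the same array to 4 decimals, against 11.48% of the 601 values at or above it, so the low end of the scale is coarse. Brightness depends on the probe as well as on the transcript, and no gene is ranked against another here.

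In saline rats at 3 h the largest differences toward choroid plexus belonged to Kcne2, Kcna1, Kcnk1 and Kcnh1, and those toward blood to Kcna6 and Kcnn4. Of 74 potassium channel genes tested, 15 were higher in choroid plexus and 11 higher in blood (limma, Benjamini-Hochberg adjusted p under 0.05). Over all 9925 genes tested 56.2% were called, 31.9% higher in choroid plexus and 24.3% lower. Their median log2 difference, choroid plexus minus blood, was -0.03, beside 0.15 over all genes tested. By subfamily the calls higher and lower in choroid plexus were 2 and 2 of 15 auxiliary subunits, 4 and 4 of 29 voltage-gated pore subunits, 5 and 2 of 12 inward rectifiers, 4 and 2 of 11 two-pore channels and 0 and 1 of 7 calcium- or sodium-activated channels.

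**Figure D1:**
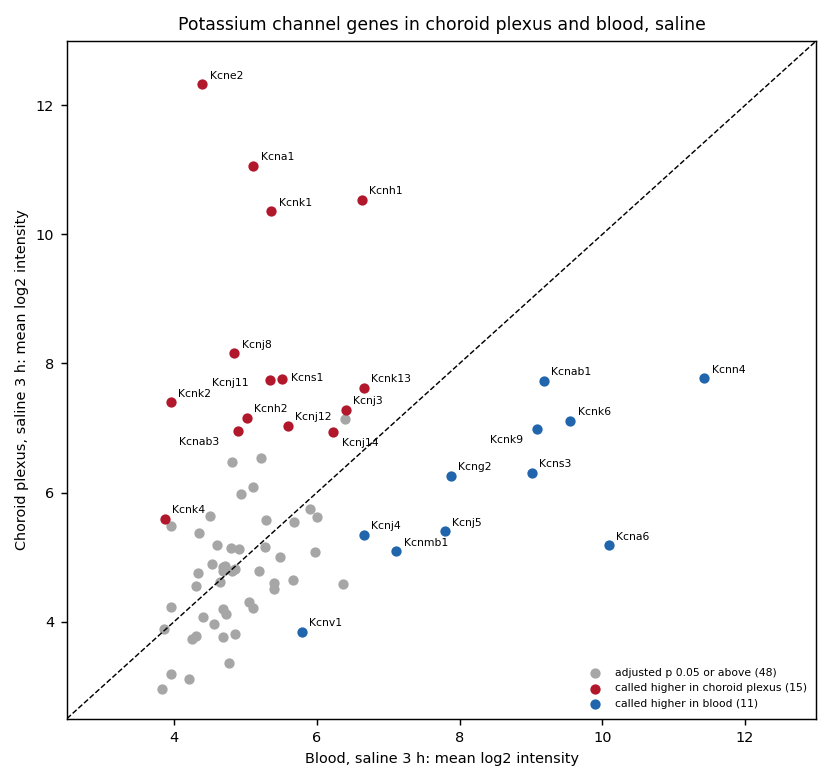
Mean log2 intensity of each potassium channel gene in choroid plexus (vertical) against blood (horizontal), saline 3 h, up to 4 arrays a group; the dashed line marks equal values. The 15 red genes were called higher in choroid plexus and the 11 blue genes higher in blood, while the 48 grey genes did not pass the test and lie mostly below 7 on both axes.

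Among the auxiliary subunits, Kcne2, a small protein that joins Kcnq1 and other pore subunits at the apical membrane of this epithelium, showed the widest gap. Its log2 intensity was 12.28, 12.35, 12.40 and 12.28 in the 4 saline choroid plexus pools, and 5.67 and 3.12 on 2 blood arrays, the other 2 being blank. All choroid plexus values lay above all blood values, with a log2 difference of 7.93 ± 0.67 (SE, n = 4 and 2; limma, adjusted p = 0.000149). The blood values of Kcne2 lie in the low, coarse range, so no fold is given. Kcnab3, a cytoplasmic beta subunit of Shaker channels, read 7.18, 7.28, 7.00 and 6.36 in choroid plexus and 4.44, 5.49 and 4.76 on 3 blood arrays, a difference of 2.06 ± 0.33 (limma, adjusted p = 0.00156). Its relative Kcnab1 went the other way, with 7.97, 8.00, 7.70 and 7.28 in choroid plexus and 8.95, 9.37, 9.04 and 9.38 in blood, a difference of -1.45 ± 0.21 (limma, adjusted p = 0.000473). Kcnmb1, the beta subunit of the large-conductance calcium-activated channel of smooth muscle, was also higher in blood, at 6.72 to 7.67 against 4.87 to 5.23, a difference of -2.03 ± 0.22. The groups did not overlap for any of these 4 genes.

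Among the voltage-gated pore subunits, the highest differences belonged to Kcna1, a Shaker delayed rectifier also named Kv1.1, and Kcnh1, an ether-a-go-go channel. Kcna1 read 11.15, 11.20, 11.04 and 10.86 in choroid plexus and 6.27, 5.27 and 3.80 on 3 blood arrays, with 1 blank, a difference of 5.95 ± 0.54 (limma, adjusted p = 7.95e-05). Kcnh1 read 10.66, 10.27, 10.43 and 10.77 in choroid plexus and 4.97, 7.14, 7.27 and 7.13 in blood, a difference of 3.91 ± 0.51 (limma, adjusted p = 0.000289). Both sets of choroid plexus pools spread over less than 1 unit, while the blood arrays spread over more than 2. Kcns1, a silent subunit that modifies Kcnb channels, read 7.97, 7.75, 7.58 and 7.72 against 5.47, 7.43, 4.02 and 5.12, a difference of 2.25 ± 0.64 (adjusted p = 0.0174). Kcnh2, the hERG channel, read 6.87, 7.27, 7.14 and 7.37 against 4.44, 5.35 and 5.27 on 3 blood arrays, a difference of 2.14 ± 0.27 (adjusted p = 0.000423).

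Higher in blood was Kcna6, another Shaker pore subunit. Its values were 5.06, 5.25, 5.53 and 4.90 in choroid plexus and 9.52, 10.06, 10.44 and 10.34 in blood, without overlap, a difference of -4.90 ± 0.24 (limma, adjusted p = 1.43e-06). Kcna1 and Kcna6 are next to each other on chromosome 4 in the gene order of GRCr8, with Kcna5 on the other side of Kcna1, and these neighbours stood on opposite sides of the comparison. Kcns3, a silent subunit, read 6.12, 6.69, 5.85 and 6.56 in choroid plexus and 9.24, 9.07, 8.88 and 8.88 in blood, a difference of -2.71 ± 0.22 (adjusted p = 1.76e-05). Kcng2, also a silent subunit, read 6.23, 6.64, 6.51 and 5.67 against 7.50, 8.01, 7.64 and 8.34, a difference of -1.61 ± 0.27 (adjusted p = 0.0013). The probes of Kcng2 disagree: a dimmer probe read 0.93 ± 0.40 higher in choroid plexus (adjusted p = 0.0886), so the direction for Kcng2 rests on its brightest probe. Kcnv1 was called lower in choroid plexus, with a difference of -1.95 ± 0.47, from 2 blood values, and the difference was 0.012 (adjusted p = 0.995) when blank cells were set to the lowest value of their array.

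Among the inward rectifiers, both pore subunits of the ATP-sensitive channel were higher in choroid plexus. Kcnj8, the form of vascular smooth muscle and pericytes, read 8.34, 8.24, 8.14 and 7.93 against 4.97, 3.90, 5.98 and 4.53 in blood, a difference of 3.31 ± 0.41 (limma, adjusted p = 0.000208). Kcnj11, the form of pancreatic beta cells, read 7.66, 7.38, 7.76 and 8.17 against 5.33, 4.66, 5.48 and 5.90, a difference of 2.40 ± 0.29 (adjusted p = 0.000187). Neither gene overlapped between tissues. Mural marker genes were higher in choroid plexus too, with a mean over 5 genes of 8.04 to 9.05 against 4.23 to 5.74, and their part in the Kcnj8 difference was not tested. Smaller differences in the same direction were called for Kcnj12 (1.44 ± 0.50), the G protein-gated subunit Kcnj3 (0.88 ± 0.24) and Kcnj14 (0.72 ± 0.27). The Kcnj12 call was lost without any 1 of 5 arrays (adjusted p 0.0655 to 0.0959). Kcnj5, the partner of Kcnj3 in the acetylcholine-gated channel of the heart, was higher in blood, with 5.27, 5.87, 5.81 and 4.64 in choroid plexus and 8.92, 7.30, 7.07 and 7.89 in blood, a difference of -2.40 ± 0.46 (adjusted p = 0.00235). Kcnj4 differed in the same direction by -1.31 ± 0.18 (adjusted p = 0.000422), at 5.18 to 5.54 against 6.28 to 6.92.

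Among the two-pore domain channels, which carry background currents, Kcnk1 (TWIK-1) read 10.39, 10.12, 10.54 and 10.39 in choroid plexus and 4.92, 5.27 and 5.90 on 3 blood arrays, with 1 blank. The difference was 4.99 ± 0.26 (limma, adjusted p = 5.03e-06). Kcnk2 (TREK-1), opened by stretch and lipids, was more variable in choroid plexus, at 8.41, 6.97, 8.30 and 5.91, against 4.66 and 3.25 on 2 blood arrays, a difference of 3.44 ± 0.84 (adjusted p = 0.0151). Kcnk13 (THIK-1) read 7.69, 7.69, 7.44 and 7.67 against 6.50, 7.35 and 6.12, a smaller difference of 0.97 ± 0.30 (adjusted p = 0.0283), and Kcnk4 differed by 1.72 ± 0.56 (adjusted p = 0.0426) from 2 blood values, a call lost without choroid plexus replicate 1 or 3 (adjusted p = 0.0951 and 0.0599). Higher in blood were Kcnk6 (TWIK-2), at 7.50, 7.54, 7.16 and 6.27 against 9.44, 9.62, 9.64 and 9.51, and the acid-sensitive Kcnk9 (TASK-3), at 6.96, 6.94, 7.46 and 6.59 against 7.86, 9.43, 9.50 and 9.54. Their differences were -2.44 ± 0.28 and -2.09 ± 0.41 (adjusted p = 0.000153 and 0.0027). Neither overlapped between tissues, and 1 blood array of Kcnk9, at 7.86, lay apart from the other 3.

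Kcnn4, the intermediate-conductance calcium-activated channel, was the single call among 7 calcium- or sodium-activated channels. It read 8.01, 8.19, 7.69 and 7.20 in choroid plexus and 11.78, 12.26, 11.45 and 10.22 in blood, a difference of -3.66 ± 0.44 or 12.6-fold (95% interval 6.19 to 25.7; limma, adjusted p = 0.000186). It was above the array median in both tissues, and the blood arrays were all brighter than every choroid plexus pool.

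A set of 5 genes was measured on at least 3 of 4 arrays of every choroid plexus group and blank on over 50% of the blood arrays. They were Kcna4, Kcnj6, Kcnn1, Kcnq1 and Kcnv1, and no potassium channel gene showed the reverse. Blanks were commoner in blood for all genes, at 5.85% to 9.95% of cells a group against 2.54% to 4.01% in choroid plexus. For potassium channel genes they were 12.5% to 22.8% against 3.44% to 9.38%. The share of all genes with this pattern was not counted. Kcnq1, the delayed rectifier that Kcne2 joins, had 19 of 20 choroid plexus values of 5.71 to 7.76 (median 7.10) and 9 of 24 blood values of 3.17 to 6.35. It was blank on all 8 blood arrays of saline rats, so no saline test was possible. In the 3 conditions with 2 or more blood values it was called higher in choroid plexus, by 2.38 ± 0.62 (EIH 3 h), 2.51 ± 0.77 (EIH 1 day) and 3.31 ± 0.52 (AMPH 1 day) on the log2 scale (limma, adjusted p = 0.0138, 0.0326 and 0.00277). The EIH 1 day call was lost without any 1 of the 4 choroid plexus pools (adjusted p 0.057 to 0.0729), and the AMPH 1 day call with blank cells at the lowest value of their array (adjusted p = 0.0866). The other 4 had medians of 4.20 to 5.15 in choroid plexus, below every array median, and blood values in the same range where present.

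The tissue contrast was repeated in 4 further conditions: EIH and AMPH at 3 h and at 1 day. No arrays were shared, but the same rat number was listed in choroid plexus pools of saline 3 h and AMPH 1 day. The same held for pools of AMPH 3 h and EIH 1 day, and of EIH 3 h and EIH 1 day. Within EIH 1 day, replicates 2 and 3 listed a rat number in common, and so did replicates 3 and 4. The labels do not say whether these were the same animals. Independence of the 5 conditions, and of the 4 pools of EIH 1 day, is therefore not shown. Called higher and lower in choroid plexus were 11 and 14 of 76 genes tested in EIH 3 h, 15 and 15 of 76 in AMPH 3 h, 13 and 14 of 72 in EIH 1 day, and 10 and 11 of 72 in AMPH 1 day (limma, adjusted p under 0.05), where 59.1%, 57.1%, 57.8% and 44.8% of all genes tested were called. Split by direction, the shares of all genes higher and lower were 32.5% and 26.6% in EIH 3 h, 32.1% and 25% in AMPH 3 h, 31.8% and 26% in EIH 1 day, and 24.1% and 20.7% in AMPH 1 day. Of the 64 potassium channel genes tested in all 5 conditions, 7 were higher in choroid plexus in each (Kcna1, Kcne2, Kcnh1, Kcnj8, Kcnk1, Kcnk2 and Kcns1) and 6 were lower in each (Kcna6, Kcng2, Kcnj5, Kcnk9, Kcnn4 and Kcns3). Over all 9386 genes tested in each, 19.2% were higher and 15% lower in all 5. Called in at least 1 condition were 44 of the 80 genes, and 36 in none. Kcnj3 and Kcnj14 were higher, and Kcnab1 and Kcnk6 lower, in 4 of the 5. The Kcnj3 calls in EIH 1 day and AMPH 1 day were each lost without any 1 of 6 arrays (limma, adjusted p 0.0598 to 0.0958 and 0.0534 to 0.0808). Those of Kcnj14 were lost without any 1 of 5 arrays in AMPH 3 h (adjusted p 0.0506 to 0.0788) and of 6 in AMPH 1 day (0.0617 to 0.106).

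Over the 5 conditions the log2 difference ranged from 6.68 to 7.93 for Kcne2, from 4.12 to 5.95 for Kcna1, from 3.31 to 4.45 for Kcnh1 and from 2.76 to 3.31 for Kcnj8. Kcnk1 ranged from 3.57 to 5.23, Kcnk2 from 2.19 to 4.74 and Kcns1 from 2.16 to 3.12. The lowest Kcnk1 value belonged to AMPH 3 h, where 1 blood array read 10.53, as bright as choroid plexus, beside 4.55, 6.10 and 5.65 on the other 3. That call was lost without any 1 of 7 arrays (adjusted p 0.0535 to 0.0682), and the Kcns1 call in EIH 3 h without any 1 of 6 (adjusted p 0.0558 to 0.0725). On the blood side Kcna6 ranged from -5.65 to -4.90, Kcnn4 from -3.66 to -3.29, Kcnk9 from -2.87 to -1.73, Kcns3 from -2.71 to -1.67, Kcnj5 from -2.73 to -1.60 and Kcng2 from -2.30 to -1.15. Kcng2 lost its call in EIH 3 h without any 1 of 7 arrays (adjusted p 0.0543 to 0.0635), and Kcnj5 in AMPH 3 h without choroid plexus replicate 2 (adjusted p = 0.0531) or blood replicate 1 (adjusted p = 0.0536).

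**Figure D2:**
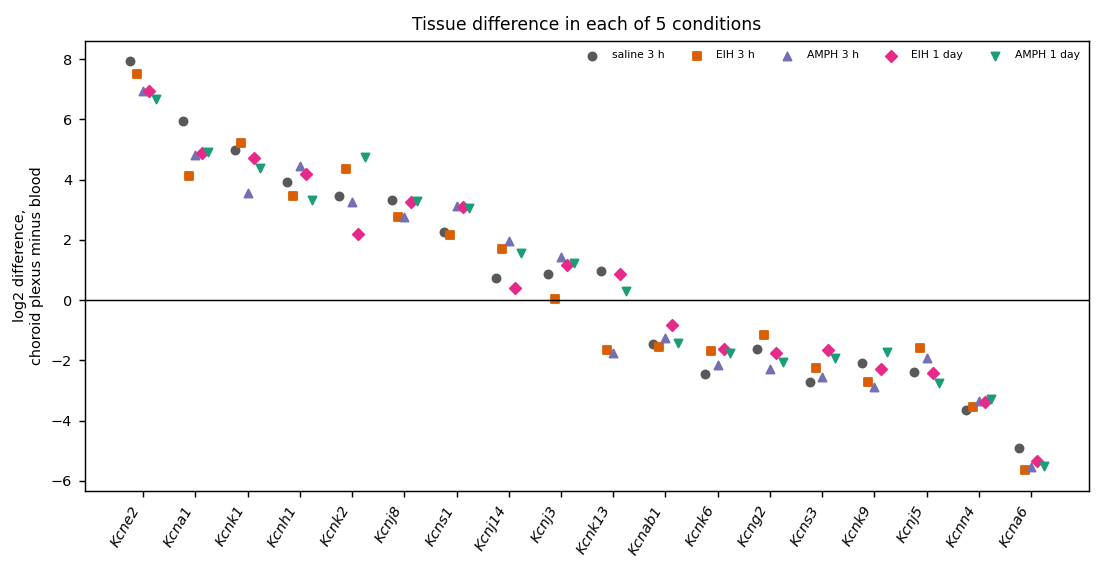
Log2 difference, choroid plexus minus blood, of the 18 potassium channel genes called in at least 4 of 5 conditions or in both directions, with 1 symbol per condition and the line at 0 for equal values. The 5 values of a gene lie on 1 side of 0 for every gene except Kcnk13, which is above 0 in saline 3 h (0.97) and below it in EIH 3 h (-1.65) and AMPH 3 h (-1.75).

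**Figure D3:**
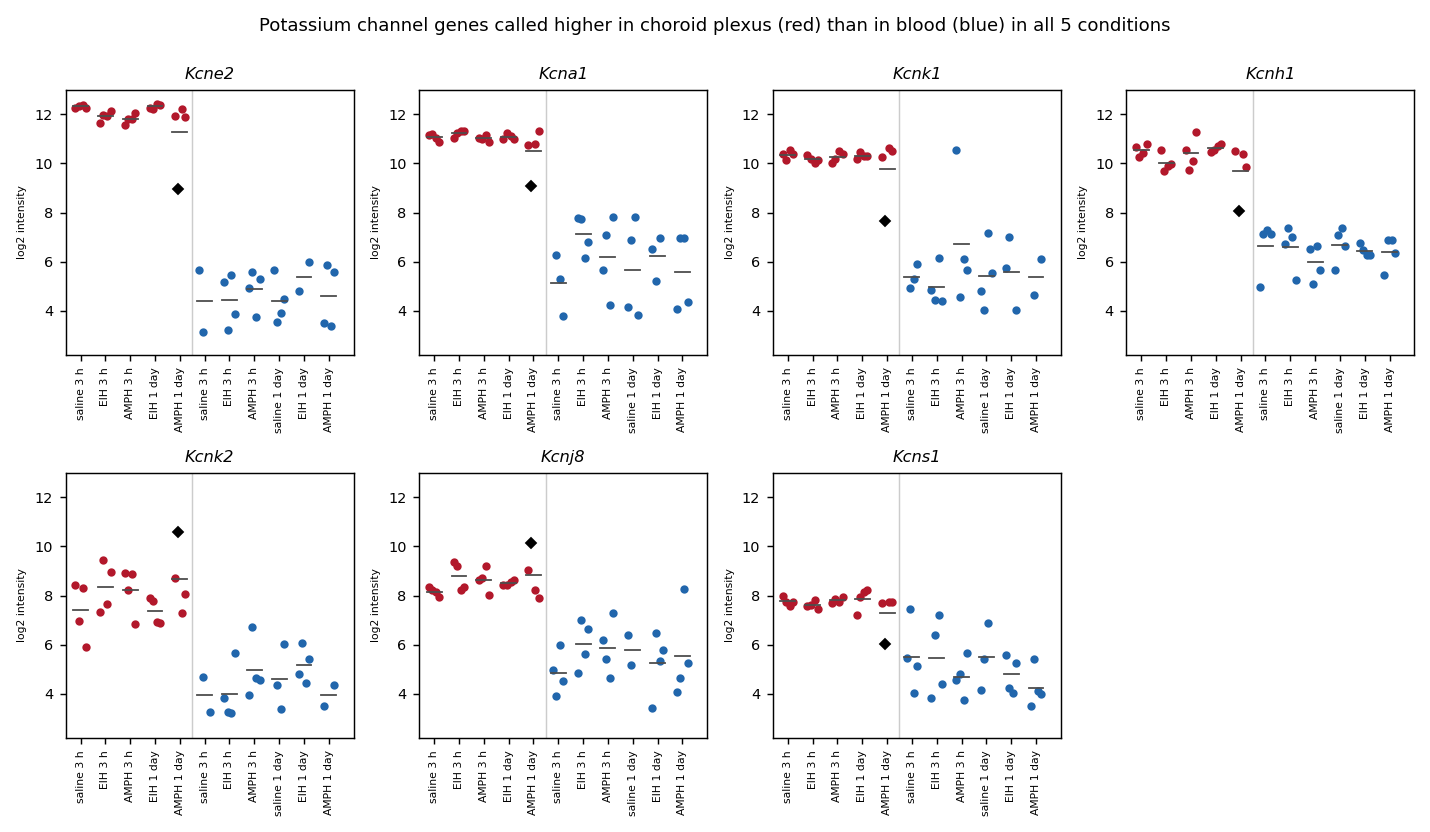
Log2 intensity on each array of the 7 genes called higher in choroid plexus in all 5 conditions: red points are choroid plexus pools, blue points blood arrays, grey lines group means and the black diamond the pool AMPH 1 day replicate 2; blanks are not drawn. Kcne2, Kcna1 and Kcnk1 lie above 10 in every choroid plexus pool but the diamond, which is below its group, while for Kcnk2 and Kcnj8 the diamond lies above it.

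**Figure D4:**
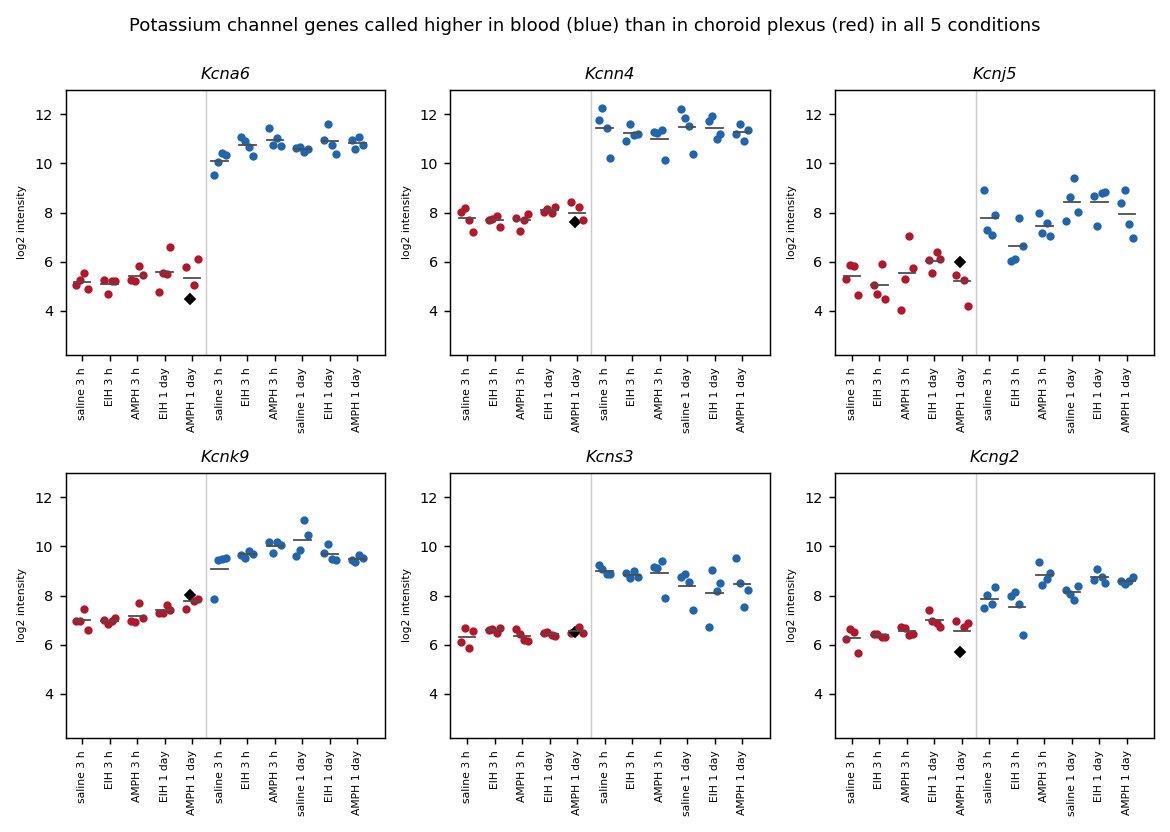
Log2 intensity on each array of the 6 genes called higher in blood in all 5 conditions, drawn in the same way. Kcna6 and Kcnn4 lie above 9 in blood in every group, and the choroid plexus pools of Kcna6 between 4.49 and 6.58.

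The pool AMPH 1 day replicate 2 held both the lowest and the highest values of several channel genes. Among the 7 genes above the median on all 19 other pools, 5 were lower there than on any of them and 1 was higher. Over the 4466 genes of the table above the median on the same 19 pools, 40.6% were lower there than on any of them and 21.3% higher. Kcne2 read 8.97 against 11.59 to 12.42 on the other 19 pools, Kcna1 9.09 against 10.76 to 11.32, Kcnk1 7.65 against 10.04 to 10.63 and Kcnh1 8.05 against 9.70 to 11.30. Kcnj11 (5.30 against 7.05 to 8.98) and Kcns1 (6.01 against 7.21 to 8.21) were low as well. Above all others were Kcnj8 at 10.13 against 7.89 to 9.35, Kcnk2 at 10.59 against 5.91 to 9.43 and Kcnk6 at 10.63 against 6.27 to 9.22. In all, 14 of the 80 genes were below and 14 above every other pool and 9 were blank, where 25.163% and 21.754% of all genes were outside the others. In that pool mural markers stood at 10.55 and stromal markers at 13.80, and their part in these values was not tested. EIH 1 day replicate 1, with stromal markers at 12.83, read 9.22 for Kcnk6 where the other 3 pools of its group read 7.59 to 7.71.

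Within the choroid plexus no potassium channel gene was called after either treatment. Against saline 3 h, 0 of 79 genes tested were called for EIH 3 h and 0 of 79 for AMPH 3 h (limma, adjusted p under 0.05). Over all genes 0.341% and 0.156% were called. Of the 79 potassium channel genes, 4 and 12 had an unadjusted p under 0.05. Here and below, the shares of all genes refer to the adjusted p and are no background for the unadjusted counts. The median log2 difference was -0.09 for EIH and 0.04 for AMPH, beside 0.01 and 0.03 over all genes. AMPH 3 h against EIH 3 h gave 0 of 80 (5 with an unadjusted p under 0.05; 0.00973% of all genes called) and AMPH 1 day against EIH 1 day 0 of 76 (4 such; 0%). Both 1 day groups could be set only against saline 3 h, where treatment, time and normalization set cannot be told apart: 0 of 79 for EIH 1 day (3 with an unadjusted p under 0.05; 0% of all genes called) and 0 of 76 for AMPH 1 day (4; 0.0294%). With weights for each array, another limma fit, 5 genes were called in AMPH 3 h and 1 (Kcnh7) in EIH 3 h.

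Kcne2 read 11.59, 11.82, 11.82 and 12.08 after AMPH and 11.65, 11.96, 11.94 and 12.13 after EIH, all below the 4 saline pools (12.28 to 12.40). The difference for AMPH was -0.50 ± 0.47 (limma, adjusted p = 0.677), the SE including the pool AMPH 1 day replicate 2. With that pool left out of the shared spread it was -0.50 ± 0.12 (adjusted p = 0.038), and Kcnk13 and Kcnip1 passed as well, so 3 genes were called in place of 0. Kcnk13 read 6.98, 6.96, 7.35 and 6.80 after AMPH and 7.23, 7.25, 7.35 and 7.14 after EIH, all below its 4 saline pools, with differences of -0.60 ± 0.22 (adjusted p = 0.204; 0.035 without that pool) and -0.38 ± 0.22 (adjusted p = 0.482). Both treatments share the saline pools. Kcnip1, which binds the Kv4 pore, was blank on 2 of 4 AMPH pools and read 5.07 and 5.48 on the others, against 3.39, 3.35 and 2.83 on 3 saline pools, a difference of 2.09 ± 0.32 (adjusted p = 0.0535; 0.0231 without that pool). Kcnip1 was above the array median on 0 of 20 choroid plexus arrays, so these values lie in the coarse low range. The Kcnip1 gene overlaps Kcnmb1 in the GRCr8 annotation.

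Other AMPH 3 h differences in choroid plexus missed the threshold. Of the genes below, Kcne1, Kcnk3, Kcnk10, Kcnh5, Kcnj6 and Kcnj10 were above the array median on 0 of 20 choroid plexus arrays. Their values lie in the coarse low range. Kcne1, a small subunit that slows Kcnq1, read 5.05, 5.19, 6.15 and 5.81 against 4.58, 3.85, 4.68 and 2.73 in saline, without overlap, a difference of 1.59 ± 0.46 (limma, adjusted p = 0.131). Kcnq1 read 6.38, 6.49, 5.71 and 7.28 against 7.16, 7.25, 7.37 and 6.95, a difference of -0.72 ± 0.27 (adjusted p = 0.223). Kcnj11 read 8.67, 8.92, 8.98 and 7.39 against 7.66, 7.38, 7.76 and 8.17, where 3 of 4 AMPH pools were above all saline pools, a difference of 0.75 ± 0.51 (adjusted p = 0.527). The largest differences belonged to the dim Kcnmb3, at -2.11 ± 0.76 for AMPH and -1.69 ± 0.76 for EIH, and its saline values of 9.28, 4.72, 5.33 and 6.59 were themselves far apart. Kcnk3 (-1.49 ± 0.58), Kcnk10 (1.30 ± 0.42; 1.10 ± 0.45 for EIH) and, for EIH, Kcnh5 (-1.36 ± 0.49, adjusted p = 0.242) did not pass either. Between AMPH 3 h and EIH 3 h the largest were Kcnj6 (1.78 ± 0.63), Kcnj10 (1.20 ± 0.50) and Kcnma1 (1.07 ± 0.83), each with an adjusted p of 1.00, and Kcnip1, with 2 AMPH values, stood at 2.24 ± 0.32 (adjusted p = 0.33).

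At 1 day in choroid plexus Kcne2 read 12.25, 12.23, 12.42 and 12.39 after EIH, beside 12.28 to 12.40 in the saline pools of 3 h, and 11.94, 8.97, 12.24 and 11.91 after AMPH. Against saline 3 h the largest differences among genes with at least 3 values in both groups, the condition for each set of largest differences here, were Kcnmb3 (-2.30 ± 0.76, adjusted p = 0.297), Kcna7 (1.29 ± 0.74) and Kcnv1 (1.25 ± 0.68) for EIH. For AMPH they were Kcnk15 (2.06 ± 0.88), Kcnj16 (1.27 ± 0.91) and Kcnk2 (1.27 ± 0.71), none past the threshold (limma, smallest adjusted p = 0.127, of Kcnk9 at 0.78 ± 0.19). Kcnj16, with 3.82, 8.66, 4.69 and 4.54 after AMPH, and Kcnk2 were highest in the pool that stood apart: without it their differences were 0.20 and 0.63. Without the pools of recurring rats the difference of Kcnj16 was -0.10, and without AMPH replicate 4 that of Kcnk15 was 1.25. Between AMPH and EIH at 1 day the largest were Kcnh8 (1.78 ± 0.80), Kcnk2 (1.29 ± 0.71) and Kcnj1 (1.28 ± 0.77). Without the pool that stood apart Kcnk2 was at 0.65, and without AMPH replicate 4 Kcnh8 was at 0.76 and Kcnj1 at 0.46. Over the 70 genes with at least 3 values in each group the range of the 5 choroid plexus group means had a median of 0.92 beside a median pooled SD of 0.70, and it was widest for Kcnmb3 (2.30), Kcnk15 (2.06) and Kcnj6 (1.78).

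In blood, Kcna6 rose after AMPH at 3 h. It read 11.43, 10.74, 11.02 and 10.70 after AMPH and 9.52, 10.06, 10.44 and 10.34 after saline, so the groups did not overlap, with a difference of 0.88 ± 0.26 or 1.84-fold (limma, adjusted p = 0.0362). It was the single call among 72 potassium channel genes tested (8 with an unadjusted p under 0.05), where 8.37% of all genes were called and the median difference was 0.14 beside 0.01 over all genes. The call was lost without saline replicate 1 (0.69, adjusted p = 0.139), saline replicate 2 (0.0746) or AMPH replicate 1, 2, 3 or 4 (0.109, 0.0535, 0.0628 and 0.0517), and with the other blood groups left out of the fit (0.0934). After EIH at 3 h Kcna6 read 11.08, 10.93, 10.67 and 10.29, a difference of 0.65 ± 0.26 (adjusted p = 0.106), and at 1 day its saline values (10.48 to 10.66) overlapped those after AMPH (10.60 to 11.08).

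White cell markers moved with the treatments in blood at 3 h. The mean over 6 neutrophil markers was 10.85 to 11.51 in saline, 11.82 to 12.83 in EIH and 12.36 to 12.84 in AMPH, while T cell markers were 10.73 to 11.23, 8.06 to 9.98 and 8.37 to 10.07, none of them blank on all 4 arrays of a group. Monocyte and macrophage markers were 9.58 to 10.40, 10.50 to 12.59 and 11.45 to 12.22. Their part in the potassium channel values of blood was not tested.

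EIH at 3 h called 0 of 72 potassium channel genes in blood (8 with an unadjusted p under 0.05), where 12.5% of all genes were called (limma), and array weights called Kcnk6 and Kcnk13. The median difference was 0.50, beside 0.08 over all genes tested, but most potassium channel genes are dim and genes of like brightness were not compared. Of their cells 22.8% were blank in saline and 14.7% in EIH, beside 9.26% and 6.03% over all genes. Kcnk6 read 9.31, 8.92, 8.85 and 8.77 after EIH, all below its saline values of 9.44, 9.62, 9.64 and 9.51, a difference of -0.59 ± 0.20 (adjusted p = 0.0555). It passed without EIH replicate 1 (adjusted p = 0.0293). Kcnk13 read 8.04, 8.66, 9.73 and 9.13 after EIH and 8.56, 8.90, 8.71 and 8.93 after AMPH, all above its 3 saline values of 6.50, 7.35 and 6.12, with differences of 2.23 ± 0.85 (adjusted p = 0.0979) and 2.12 ± 0.85 (adjusted p = 0.14). The SE of Kcnk13 includes the 1 day groups, whose saline arrays alone read 7.39, 7.74, 5.36 and 3.81. With only the 2 compared groups fitted it was 2.23 ± 0.48 (adjusted p = 0.031) for EIH and 2.12 ± 0.32 (adjusted p = 0.0192) for AMPH. Kcnn2 (-2.21 ± 0.96) and Kcna1 (1.99 ± 1.05) were the other large differences for EIH.

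Further blood genes lay above their saline values after AMPH at 3 h without passing the test. Kcng2 read 9.37, 8.44, 8.68 and 8.93 against 7.50, 8.01, 7.64 and 8.34, a difference of 0.98 ± 0.30 (limma, adjusted p = 0.0506). Kcnk9 read 10.18, 9.72, 10.20 and 10.04 against 7.86, 9.43, 9.50 and 9.54, a difference of 0.95 ± 0.33 (adjusted p = 0.078). Kcnk3 (TASK-1), the acid-sensitive relative of Kcnk9, read 6.37, 6.34, 6.19 and 7.28 after AMPH and 6.20, 6.11, 6.16 and 5.83 after EIH, against 3.64, 5.35, 5.06 and 4.82 in saline, with differences of 1.83 ± 0.63 (adjusted p = 0.0785) and 1.36 ± 0.63 (adjusted p = 0.178). All 4 arrays of each treatment were above all saline arrays for Kcnk3, and all 4 AMPH arrays for Kcng2 and Kcnk9. How many of all genes separated in this way is not given here, so the lack of overlap alone shows no change. Between AMPH and EIH at 3 h 0 of 73 were called (5 with an unadjusted p under 0.05; 0.0397% of all genes), with Kcng2 at 1.32 ± 0.30 (adjusted p = 0.109), Kcnk1 at 1.76 ± 1.04, Kcnt1 at -1.75 ± 0.69 and Kcns2 at 1.75 ± 0.87. The Kcnk1 difference was 0.48 without AMPH replicate 1, the array at 10.53, and that of Kcns2 0.99 without EIH replicate 3.

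At 1 day in blood, each treatment set against saline 1 day, 0 of 68 genes were called for EIH (4 with an unadjusted p under 0.05; 0.0512% of all genes called) and 0 of 67 for AMPH (6; 1.95%), by limma. The largest differences for EIH were Kcnd1 (1.66 ± 0.80), Kcna5 (-1.43 ± 0.63) and Kcnc2 (-1.32 ± 0.79). For AMPH they were Kcna2 (2.58 ± 1.07), Kcna3 (1.64 ± 0.62, adjusted p = 0.166) and Kcnc2 (-1.63 ± 0.79). Kcna3, the Kv1.3 channel of T cells, read 5.26, 6.30, 4.12 and 7.35 after AMPH against 5.20, 3.56, 3.90 and 3.81 in saline, all 8 values below their array medians. After AMPH at 1 day T cell markers were 8.95 to 10.46 against 10.42 to 11.01 in saline, neutrophil markers 11.39 to 12.60 against 9.48 to 10.98 and monocyte and macrophage markers 10.64 to 12.32 against 9.28 to 11.43. Their part in the AMPH values of 1 day was not tested. AMPH against EIH at 1 day gave 0 of 69 (5 with an unadjusted p under 0.05; 0%), with Kcna2 at 2.60 ± 1.07, Kcnma1 at -1.83 ± 0.77 and Kcnn3 at 1.48 ± 0.53. The range of the 6 blood group means had a median of 1.46 over 42 such genes, beside a median pooled SD of 0.91, and was widest for Kcnk13 (2.81, from 6.07 in saline 1 day to 8.89 in EIH 3 h), Kcns2 (2.32) and Kcnk3 (2.08).

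The treatment effects were then compared between tissues, as the choroid plexus effect minus the blood effect. For AMPH at 3 h 1 of 71 genes was called, where 3.11% of all genes were: Kcnk3, at -3.31 ± 0.87 (limma, adjusted p = 0.0299). It read 3.16, 3.68, 3.39 and 3.31 in choroid plexus after AMPH against 3.61, 5.01, 5.27 and 5.59 in saline, and lay higher in blood after AMPH. All these choroid plexus values are below the array median. In blood Kcnk3 was above the array median on 2 of 24 arrays. Its AMPH 3 h blood arrays other than replicate 4 (7.28) read 6.19 to 6.37, below the median too. The Kcnk3 call was lost without any 1 of 7 arrays (adjusted p 0.0509 to 0.0766, with choroid plexus saline 2, 3 and 4, choroid plexus AMPH 1 and 3, blood saline 1 or blood AMPH 4 left out), and with blank cells at the lowest value of their array (0.0563). With a random block for arrays linked by shared rats the Kcnk3 difference was -3.44 ± 0.86 (limma, adjusted p = 0.0181). Kcnk13 had the next largest values, -2.72 ± 0.89 for AMPH (adjusted p = 0.0835) and -2.61 ± 0.89 for EIH (adjusted p = 0.0743), with all choroid plexus pools below and all blood arrays above their saline groups in both. Kcnk13 passed with array weights (-2.73, adjusted p = 0.00293 for AMPH; -2.69, adjusted p = 0.00289 for EIH) and with blank cells at the lowest value of their array (-3.89, adjusted p = 0.0437; -3.78, adjusted p = 0.0343). For EIH at 3 h 0 of 71 were called (4 with an unadjusted p under 0.05; 6% of all genes), Kcnh5 at -2.47 ± 0.87 and Kcng3 at -2.35 ± 0.92 following. Kcnk13 is the gene that was called higher in choroid plexus in saline 3 h (0.97) and higher in blood in EIH 3 h (-1.65) and AMPH 3 h (-1.75).

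**Figure D5:**
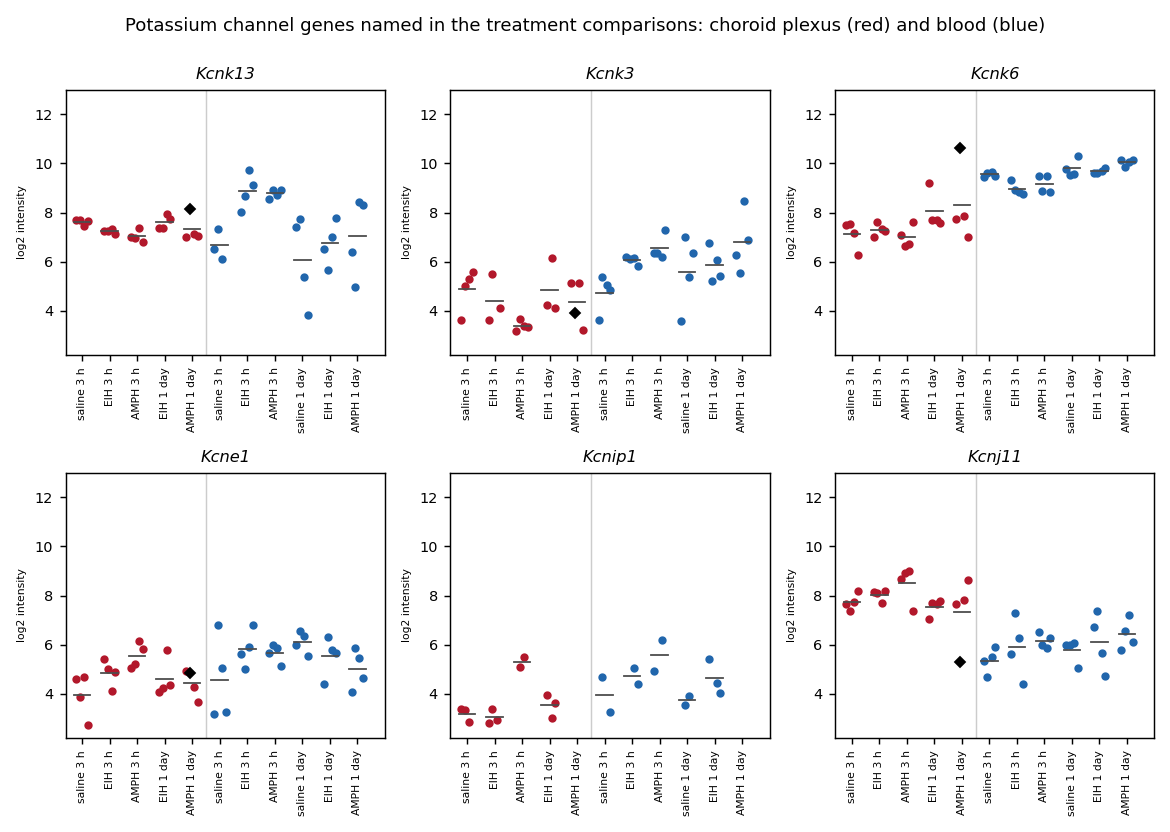
Log2 intensity on each array of 6 potassium channel genes in the 5 choroid plexus groups (red) and 6 blood groups (blue), with group means as grey lines and the pool AMPH 1 day replicate 2 as a black diamond; blanks are not drawn. Kcnk13 shows blood arrays of EIH and AMPH 3 h at 8.04 to 9.73 above the saline arrays at 6.12 to 7.35, and choroid plexus pools of the same treatments at 6.80 to 7.35 below the saline pools at 7.44 to 7.69.

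In blood the effects at 1 day and 3 h were compared in the same way. For EIH 0 of 64 genes were called (7 with an unadjusted p under 0.05; 8.62% of all genes), and the largest differences, 1 day minus 3 h, were Kcna5 (-2.61 ± 0.86, limma, adjusted p = 0.0737), Kcng3 (-2.44 ± 1.00) and Kcnip3 (-2.21 ± 1.25). For AMPH 0 of 65 were called (5 with an unadjusted p under 0.05; 0.379%), and the largest were Kcns2 (-3.31 ± 1.33), Kcne1 (-2.18 ± 0.89) and Kcnh4 (-2.12 ± 1.14). Kcnk13 was at -1.56 ± 1.16 for EIH and -1.17 ± 1.16 for AMPH.

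A list of 22 genes that work with potassium channels was set beside them: pumps, cation-chloride cotransporters and channel partners, of which 16 were on the array. In saline 13 were tested, 7 of them higher in choroid plexus and 2 lower, where 31.9% and 24.3% of all genes were. The median difference was 2.30 beside 0.15 over all genes. Atp1b1, a beta subunit of the Na,K-ATPase, read 15.24 to 15.35 in choroid plexus and 6.98 to 9.90 in blood (7.26 ± 0.60, limma, adjusted p = 2.17e-05). Slc12a2, the cotransporter that loads sodium, potassium and chloride, read 8.93 to 9.03 against 5.07 to 5.88 (3.56 ± 0.19), and Slc12a4, which extrudes potassium with chloride, differed by 5.64 ± 0.13. Atp4a, a proton-potassium pump subunit known from the stomach, read 9.85 to 10.28 against 3.53 to 4.82 (5.65 ± 0.31), and Atp1b2 (6.51 ± 0.28), Slc12a5 (2.37 ± 0.52) and Abcc8 (2.30 ± 0.57) were called too. Lower were Slc12a1 (-1.62 ± 0.41) and Dpp10 (-1.10 ± 0.37). No list gene was called within choroid plexus by limma in any of the 6 comparisons there (2, 2, 0, 0, 1 and 3 had an unadjusted p under 0.05). In blood Atp1b3 fell after EIH at 3 h (-0.59 ± 0.15, adjusted p = 0.00994) and after AMPH at 3 h (-0.53 ± 0.15, adjusted p = 0.0277). Slc12a7 fell after AMPH at 3 h (-0.99 ± 0.29, limma, adjusted p = 0.04). Slc12a2 rose after AMPH at 1 day (1.52 ± 0.35, adjusted p = 0.0305), from 4.49 to 5.73 in saline to 6.51 to 7.44. Over all genes tested in blood, 12.5% were called for EIH 3 h, 8.37% for AMPH 3 h and 1.95% for AMPH 1 day.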

How the data were processed

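Gene expression was measured with Agilent arrays with 1 dye in 20 choroid plexus pools and 24 blood samples. The authors' deposited table holds 1 intensity per probe and array on a linear scale, normalized by a method not given in the sources used here, with separate medians for the 3 h and 1 day arrays; blank cells were kept as missing. Values were taken to log2, with a floor of 1 that no value reached, and each gene was read from its brightest probe (2210 genes have several). Of 14055 probes 12926 have 1 symbol and 1129 none. Arrays were grouped by their labels, in 11 groups of 4.

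Group means were fitted with limma 3.58.1 (R 4.3.3) over the 2 groups of each tissue comparison, all groups of a tissue within it, or all 11 groups for differences between tissues in an effect, with Benjamini-Hochberg adjustment over all genes with at least 2 values in both groups. The fit was tested on simulated data. Genes named are, under saline, the 12 largest calls each way between tissues; elsewhere all calls, or otherwise the 3 largest differences with at least 3 values in both groups; genes measured in 1 tissue; and the 3 widest ranges of group means per tissue. Others were named after their values were seen, for groups without overlap or a call under an alternative. The share of all genes without overlap is not given, so a lack of overlap does not by itself show a change. Members and lists were chosen with earlier results of these data known. Alternatives changed the scaling, the probe rule, the blanks, the low filter, the spread and the arrays used.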

Additional observations from a re-analysis of the deposited data

Results flagged for a closer look

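An array that stood apart from the other 3 of its group was looked for with Dixon's criterion in 518 sets of 4 values from 62 genes. It was met in 36 sets (6.95%), where chance gives about 1 in 20.

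The choroid plexus pool AMPH 1 day replicate 2 accounts for 7 of them. It was low for Kcne2 (8.97, the other 3 at 11.91 to 12.24), Kcnk1 (7.65, the others 10.26 to 10.63), Kcnab1 (6.09, the others 8.03 to 8.16), Kcnab3 (5.11, the others 6.96 to 7.24) and Kcns1 (6.01, the others 7.69 to 7.76). It was high for Kcnj12 (8.23, the others 6.33 to 6.52) and Kcnk13 (8.15, the others 7.00 to 7.14). In the same group replicate 3 was high for Kcnip4 (6.94) and Kcns3 (6.73).

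Among the EIH 1 day pools, replicate 1 was high for Kcnk6 (9.22, the others 7.59 to 7.71) and Kcnmb1 (7.42, the others 4.57 to 5.05) and low for Kcnj11 (7.05), and replicate 2 was high for Kcnj12 (8.90) and Kcnj6 (5.88). Among the 3 h pools, AMPH replicate 2 was low for Kcnab1 (7.43) and high for Kcnj12 (7.37), and AMPH replicate 3 was low for Kcnip3 (5.62). EIH replicate 1 was high for Kcnd1 (6.24), EIH replicate 2 low for Kcna6 (4.69) and EIH replicate 4 high for Kcnk18 (5.91). Saline replicate 3 was low for Kcnk13 (7.44, the others 7.67 to 7.69), and saline replicate 4 was low for Kcng4 (3.46) and high for Kcnj1 (7.03).

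In blood, saline 3 h replicate 1 was low for Kcnk9 (7.86, the others 9.43 to 9.54) and Kcnh1 (4.97, the others 7.13 to 7.27), replicate 3 high for Kcnh5 (5.86) and replicate 4 low for Kcnd1 (3.80). EIH 3 h replicate 1 was high for Kcnmb1 (7.84). AMPH 3 h replicate 2 was high for Kcnc2 (6.25), replicate 3 high for Kcnip4 (5.14), and replicate 4 low for Kcnn4 (10.14, the others 11.26 to 11.37) and high for Kcnk3 (7.28, the others 6.19 to 6.37). At 1 day, saline replicate 4 was high for Kcnj1 (7.57) and low for Kcnj11 (5.06), and EIH replicate 2 was high for Kcnj1 (6.91) and low for Kcnj5 (7.46).

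The AMPH effect at 3 h differed between the tissues for Kcnk3, with -3.31 ± 0.87 for choroid plexus minus blood (limma, adjusted p = 0.0299), lost without any 1 of 7 arrays (adjusted p 0.0509 to 0.0766).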

How the results depend on the processing

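The counts called between tissues stayed within 1.5 times of the values reported in each alternative run: 22 to 29 in saline, 22 to 31 in EIH 3 h, 23 to 35 in AMPH 3 h, 21 to 31 in EIH 1 day and 17 to 29 in AMPH 1 day. Array weights called 1 gene for EIH 3 h and 5 for AMPH 3 h in choroid plexus, 2 for EIH 3 h and 3 for AMPH 3 h in blood, 1 and 2 for the tissue differences of EIH and AMPH, and 1 for the time difference of EIH. Leaving AMPH 1 day pool 2 out of the shared spread, chosen after seeing the data, called 3 for AMPH 3 h in choroid plexus. For EIH 3 h in blood, blanks at the lowest value, the filter of the lowest 25% of genes, the trend with robust spread, and only the 2 compared groups called 1 each. For AMPH 3 h in blood, equal medians and the filter called 2, and the trend and only the 2 groups called 3, the last Kcnk13, Kcnk3 and Kcns2 without Kcna6. The filter called 0 for the tissue difference of AMPH, and blanks at the lowest value called 1 for that of EIH. Leaving out 1 array gave 0 to 1 (EIH 3 h) and 0 to 2 (AMPH 3 h) in choroid plexus, 0 to 1 and 0 to 2 in blood, 0 to 1 for both tissue differences and 0 to 2 for the time difference of EIH. The other counts within a tissue stayed at 0 in the alternatives run. Genes above the median on every array numbered 6 in choroid plexus and 5 in blood; above the 75th percentile they were 0 and 2, and not blank 49 and 25. That 0 is the count of AMPH 1 day, which holds the pool that stood apart, while each of the other 4 choroid plexus groups had 4. Signs turned with blanks at the lowest value for Kcnv1 in saline (0.012) and Kcnt2 in AMPH 1 day (0.39), without recurring rats for Kcnj16 (-0.10), and on another probe for Kcng2 (0.93, 0.25, 0.24, 0.43 and 0.0092 in saline, EIH 3 h, AMPH 3 h, EIH 1 day and AMPH 1 day) and Kcnma1 (1.07, blood, AMPH against EIH at 1 day). Except where fewer arrays or genes were used, the cause was not tested. Leaving out pools of recurring rats was not run for EIH 1 day, where 1 pool remains. No paired analysis was possible because replicate numbers were given in accession order and a pool of 3 rats has no single blood partner. Arrays linked by shared rats, directly or through a chain of other arrays, were fitted as a random block instead. This called 26, 25, 30, 29 and 27 genes in the 5 tissue comparisons and 0 and 1 for the tissue differences of EIH and AMPH. Low signal limits most of these genes: their values lie below the array median, where many are tied.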

Other observations

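The ATP-sensitive channels join a pore subunit, Kcnj8 or Kcnj11, to a sulfonylurea receptor, Abcc8 or Abcc9. In the GRCr8 gene order Kcnj11 is next to Abcc8 on chromosome 1 and Kcnj8 next to Abcc9 on chromosome 4. Abcc8 read 6.98, 6.77, 6.91 and 6.63 in the saline choroid plexus pools, and 3.64 to 6.04 on 3 blood arrays of saline 3 h. After AMPH at 3 h it read 7.71 to 8.65 in choroid plexus, above all saline pools, a difference of 1.40 ± 0.54 that missed the threshold (limma, adjusted p = 0.229). Abcc9 had values on all 20 choroid plexus arrays and on 8 of 24 blood arrays. It read 6.52 to 7.29 in the saline choroid plexus pools and 3.53 on the single blood array of saline 3 h with a value, so the tissue difference was not tested there.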
